A study of Mus musculus with 48 samples.

Results

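The cortex of 12 injured left kidneys was compared 1 day after ischemia/reperfusion injury (IRI), 6 kidneys after 40 minutes of ischemia (severe AKI) and 6 after 20 minutes (mild AKI). They are 12 of the 48 kidney samples measured, chosen by their labels, which give IRI, the ischemia time and day 1. That the injured kidney is the left and the control the right comes from the study's methods. The mice were male C57BL/6, 6 to 8 weeks old, and the left renal pedicle was clamped for 40 or 20 minutes. The right kidneys of the same 12 mice, which were not clamped, served as self-controls and were used here only to find differences between the models that were already present without ischemia. In the methods the right kidney is taken out before the left pedicle is clamped, whereas the labels give it the day of its left kidney, so when it was taken is not settled. Each model used its own mice, so litter, day of operation and library batch cannot be told apart from ischemia time.

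Ischemia deprives the tubule of oxygen and reperfusion adds oxidative damage, and the proximal tubule, which lives on mitochondrial oxidation of fatty acids, is especially sensitive to it. Surviving proximal tubule cells lose their transporters and turn on injury genes such as Havcr1 (KIM-1) and Lcn2 (NGAL), and leukocytes enter the tissue within hours. Keratins are the intermediate filaments of epithelia, and CK20, the product of Krt20, is normally found in gut epithelium and urothelium and hardly in the kidney tubule.

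Expression was measured as FPKM (fragments scaled to transcript length and to the number of mapped fragments) and summed per gene. Depth was estimated as the value, within a fixed range searched, that best turned the FPKM of 101 to 180 genes with few reads into whole read counts. It came to 24800000 to 31500000 reads in the 40-minute kidneys, 22900000 to 32100000 in the 20-minute kidneys and 20200000 to 26500000 in the right kidneys. These estimates are rough, since only 52.3% to 66.9% of the genes used lay near a whole count. A gene was called higher or lower when the limma adjusted p was under 0.05 and the fold at least 2, on the log2(FPKM + 0.01) scale, which makes the fold of genes near 0 depend on the 0.01. Differences are 40-minute minus 20-minute throughout, and errors after a log2 difference are standard errors over 6 against 6 kidneys.

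A pair of left kidneys stood apart from their groups. The 40-minute kidney numbered 6 had 8.38 FPKM of Mki67, a protein of dividing cells, against 0.966 to 1.52 in the other 40-minute kidneys, and its Havcr1 and Krt20 were the lowest of the group. The 20-minute kidney numbered 6 had 4.21 FPKM of the clock output gene Dbp against 39.6 to 48.1 in the other 5, and it lay close to the right kidneys in most injury genes. Counts of a list that moved by over 1.5 times without both of these kidneys are given below also without them. The 20-minute kidneys numbered 3 and 4 were the most injured of their group: over a list of 35 injured proximal tubule genes, the median log2 ratio to the mean of the 12 right kidneys was 1.74 and 1.15 in these, between -0.15 and 0.79 in the other 4, and between 1.99 and 2.52 in the 40-minute kidneys.

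Of 14276 genes tested, 1116 were called higher (7.82%) and 839 lower (5.88%) in the 40-minute kidneys. The median over all genes was 0.14 on the log2 scale. At an adjusted p under 0.05 whatever the fold, 25.4% of genes were higher and 14.8% lower, and in 10.5% all 40-minute kidneys lay above all 20-minute kidneys and in 6.57% below them. Without both kidneys numbered 6, 1020 genes were higher and 1082 lower. Scaling the libraries to an equal median moved the median over all genes to 0.02 and the calls to 913 higher and 1027 lower (47.1% and 52.9% of calls, against 57.1% and 42.9%), so small common shifts are to be read against 0.14. In the right kidneys of the same mice 32 of 14158 genes (0.226%) were called higher and 32 lower (0.226%), with a median of -0.0018. When each left kidney was set against its own right kidney, 875 of 14298 genes (6.12%) gained more in the 40-minute model and 720 (5.04%) lost more, with a median of 0.13. Of 113 genes named here and called in the left kidneys, 86 were also called in that left-right change and 27 were not, 22 of them with an adjusted p of 0.05 or more.

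**Figure D1:**
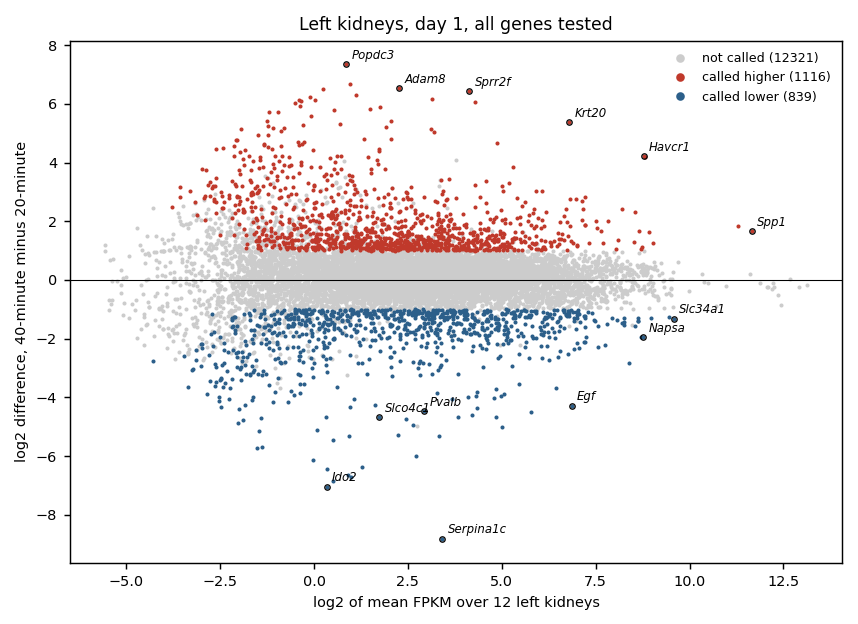
Each point is 1 gene, with the log2 of its mean FPKM over the 12 left kidneys on the x axis and its log2 difference, 40-minute minus 20-minute, on the y axis. The 1116 genes called higher and the 839 called lower are coloured, and genes that were not called are grey.

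The proximal tubule, whose brush border takes back most of the filtered phosphate, glucose, amino acids and water, lost RNA of its transporters with the longer ischemia. Of 41 transporters 24 were lower and 0 were higher at an adjusted p under 0.05 and 2-fold (limma; at an unadjusted p under 0.05, 1 was higher), with a median of -1.22, and the summed level of the list ran from 1809 to 3570 FPKM (median 2289) against 4051 to 5754 (median 5117) after 20 minutes and 5364 to 6452 in the right kidneys. In bulk cortex, fewer cells of a type and less RNA per cell cannot be told apart, for this list as for all others. Slc34a1, the main phosphate carrier of the segment, had a lowest, median and highest level of 348, 411 and 663 FPKM in the 40-minute kidneys against 831, 1052 and 1388 in the 20-minute kidneys. The groups did not overlap, and the difference was -1.33 ± 0.16 on the log2 scale (adjusted p = 0.00014).

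Slco4c1, a basolateral organic anion carrier, differed by more. It measured 0.137, 0.211 and 0.572 FPKM against 2.85, 6.67 and 8.70, a log2 difference of -4.68 ± 0.35 (adjusted p = 5.4e-06), with 3.47 to 11.7 FPKM in the right kidneys. Every 20-minute kidney was thus within or just under the range of the controls and every 40-minute kidney far below it. The water channel Aqp1 fell from 178, 236 and 291 FPKM to 43.2, 47.7 and 97.9, and the highest 40-minute value was that of the kidney numbered 6. The endocytic receptors Lrp2 (megalin, -1.44) and Cubn (cubilin, -1.55) fell as well.

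Enzymes of the same cells followed. Of 44 tested, 24 were lower and 1 was higher, with a median of -1.27. The falls reached -3.80 ± 0.32 for Cyp7b1, an oxysterol hydroxylase (mean ± SD of 2.53 ± 0.926 FPKM against 37.9 ± 20.8, n = 6 each), and -2.51 for the UDP-glycosyltransferase Ugt3a1, and Miox, which opens the inositol ring, and Acsm3, which activates medium-chain fatty acids, fell by 1.29 and 2.41 on the log2 scale. The exception was Cyp27b1, the enzyme that makes active vitamin D, at 21.1, 40.3 and 48.5 FPKM against 2.83, 4.01 and 35.1. The value of 35.1 is that of the kidney numbered 6, the only 20-minute kidney within the 40-minute range, and the difference was 2.64 ± 0.52 (adjusted p = 0.0019), or 3.07 ± 0.28 without both kidneys numbered 6.

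Other genes fell to nearly 0. Serpina1c, an alpha-1-antitrypsin gene and the largest fall among called genes whose 20-minute mean reached 1 FPKM, was at 0 in 3 of 6 kidneys after 40 minutes and at most 1.08 FPKM, against 16, 21.6 and 26.1 after 20 minutes (log2 difference -8.82 ± 1.01, adjusted p = 8.7e-05). Reads of Serpina1c and its near copies such as Serpina1e (-6.72) and Serpina1a (-4.03) may have been split between them, so their single values are uncertain. Car5a, a mitochondrial carbonic anhydrase, Akr1c18, a progesterone-metabolizing reductase, and Ido2, which degrades tryptophan, fell, with log2 differences of -6.44, -5.31 and -7.04.

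**Figure D2:**
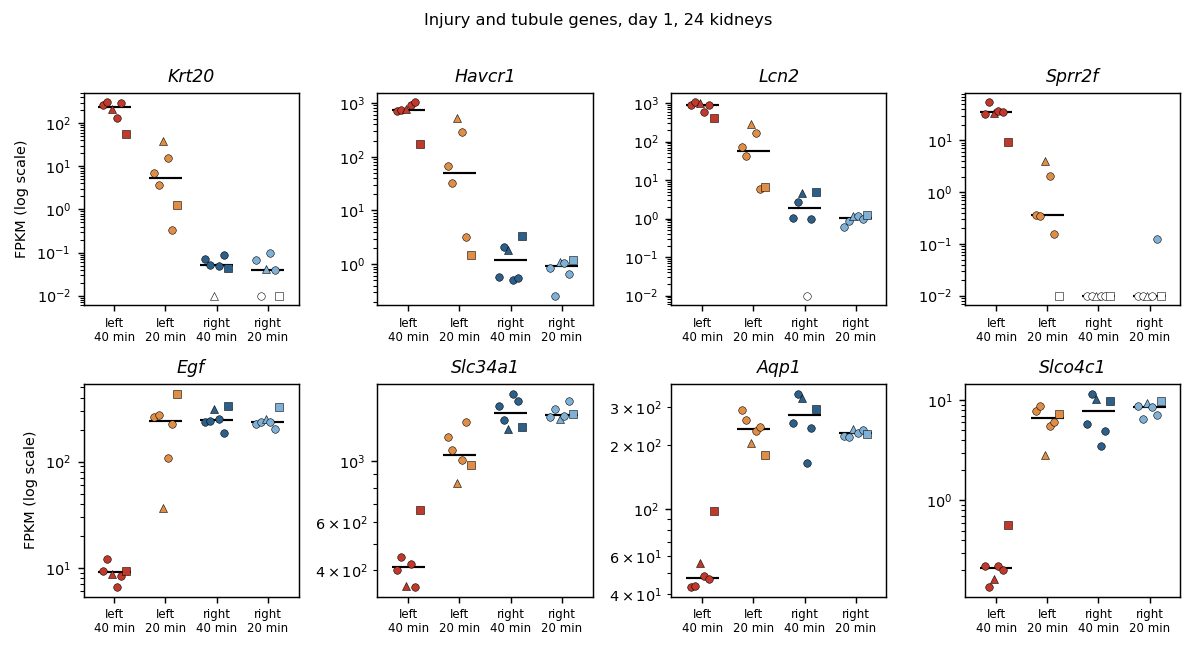
Each symbol is 1 kidney, with FPKM on a log axis, in the 4 groups of left and right kidneys of both models; bars are medians, squares mark the kidneys numbered 6, triangles those numbered 3, and open symbols are values at or under 0.01 drawn at 0.01. Krt20, Havcr1, Lcn2 and Sprr2f were higher and Egf, Slc34a1, Aqp1 and Slco4c1 lower after 40 minutes, and only Havcr1 overlapped between the left groups, with 171 to 1026 against 1.49 to 523 FPKM.

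The distal nephron was affected less evenly. In the thick ascending limb, which dilutes the urine, 8 of 19 genes were lower and 0 higher (0 at an unadjusted p under 0.05), with a median of -0.76, and in the distal convoluted tubule 9 of 18, with a median of -1.0. Egf, the growth factor that the distal tubule sheds into urine, measured 6.61, 9.04 and 12.2 FPKM after 40 minutes and 36.5, 243 and 436 after 20 minutes. The groups did not overlap, the right kidneys had 187 to 331 FPKM, and the difference was -4.28 ± 0.48 (adjusted p = 7.8e-05).

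Pvalb, a calcium buffer of the distal convoluted tubule, stood at 0.0777, 0.916 and 1.11 FPKM against 5.84, 14.7 and 21.8, a difference of -4.48 ± 0.57. Slc12a1, the target of loop diuretics, and Slc12a3, that of thiazides, fell by 1.59 and 1.02 on the log2 scale, the latter at the limit of 2-fold (-0.83 without both kidneys numbered 6). Umod, the most abundant protein of normal urine, was not called (-0.43 ± 0.17, adjusted p = 0.061). In the collecting duct 4 of 20 genes were lower, among them Atp6v1b1, a subunit of the proton pump of intercalated cells (-1.0), and Slc4a1, the chloride/bicarbonate exchanger of the acid-secreting cells (-2.97).

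Of 35 injury genes of the proximal tubule 19 were higher and 1 lower, with a median of 1.52, and the summed level reached 5960 to 10080 FPKM against 1134 to 6548 after 20 minutes and 879 to 1298 in the right kidneys. Krt20 was picked by the study from these samples, whereas the study took the proteins of Havcr1 and Lcn2 as injury markers already in use. The list was also set with earlier results of these data known, so its direction is not independent evidence. Havcr1 measured 171, 752 and 1026 FPKM against 1.49, 50.2 and 523, a difference of 4.22 ± 1.28 (adjusted p = 0.02). The 20-minute kidneys numbered 3 and 4 were above the 40-minute kidney numbered 6, so the groups overlapped, and the gain over the own right kidney was not called between models (log2 difference 3.65, adjusted p = 0.073).

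Lcn2, an iron-siderophore binder released by stressed tubules and neutrophils, measured 418, 888 and 1040 FPKM against 5.84, 56.7 and 294. Spp1 (osteopontin), an acidic matrix protein, had the highest FPKM of the list, 3310, 4658 and 5225 against 470, 1498 and 4050, and the value of 4050, in the 20-minute kidney numbered 3, was above the 3310 of the 40-minute kidney numbered 6. Akap12, a scaffold for signalling enzymes, rose by 3.86 ± 0.43 (44.8, 62.7 and 125 FPKM against 1.62, 5.18 and 10.05) without overlap. Sox9, a regulator of tubular repair, Cd44, a hyaluronan receptor, and Vim, the filament of mesenchymal and dedifferentiated cells, rose by 2.81, 2.95 and 2.28. The exception in direction was Bcat1, a cytosolic enzyme of branched-chain amino acid breakdown, at -2.96.

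Keratin genes rose in 6 of 12 tested, with a median of 2.02. The list holds the cytokeratins that the study followed in these samples, so this count is not independent evidence. Krt8, Krt18 and Krt19, which form filaments in simple epithelia, rose by 2.01 ± 0.33, 2.02 ± 0.37 and 2.80 ± 0.59, each with overlap of the groups. Krt20, Krt23 and Krt4 were the others called, and Krt4 lost its call with 0.1 FPKM added before the logarithm. In the left-right change 4 of the 12 were called, but not Krt19 (1.74, limma adjusted p = 0.071). Krt20 itself measured 56.9, 239 and 304 FPKM against 0.334, 5.45 and 39, with at most 0.0978 FPKM in any right kidney. The lowest 40-minute value, in the kidney numbered 6, was still above the highest 20-minute value, in the kidney numbered 3. Krt7, a keratin of the collecting duct, was not called (0.29 ± 0.17, adjusted p = 0.19).

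Among 19 injury markers measured in urine, 6 were higher and 1 lower, with a median of 0.58. The list holds markers that the study compared with urinary CK20 in patients, and it was set with earlier results of these data known. Ccn1, a matricellular protein, and Clu, an extracellular chaperone, rose by 1.87 and 1.65, while Timp2 (0.82 ± 0.24) and Igfbp7 (-0.09 ± 0.11), whose proteins are used together as a bedside test of tubular stress, were not called.

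Of 11 genes of the cornified layer of skin 3 were higher and 0 lower, with a median of 1.27. Sprr2f, a small proline-rich protein that is cross-linked into the cell envelope of squamous epithelia, measured 9.35, 35 and 54.3 FPKM against 0, 0.355 and 4.09, and at most 0.126 FPKM in the right kidneys. The difference was 6.43 ± 1.15 (adjusted p = 0.0011) and the groups did not overlap. Its neighbour in the family, Sprr2g, rose by 6.17 and Ivl (involucrin) by 2.83, and these were the 3 that were called. Sprr2a1 (-0.54), Sprr2a2 (-1.05) and Tgm1 (-0.58) were on the other side without being called, the summed level of the list overlapped (185 to 339 FPKM against 79.7 to 374), and the 20-minute kidney numbered 3 had a higher list median (6.89 as log2 ratio to the right kidneys) than any 40-minute kidney (2.67 to 4.75). Near copies of Sprr2 genes may share reads, and the split between Sprr2f and Sprr2g is uncertain for that reason. Popdc3, a membrane protein best known from muscle, and Adam8, a metalloprotease of activated leukocytes and injured epithelia, were at 0 in 4 and 3 of 6 kidneys after 20 minutes and rose to medians of 3.63 and 8.07 FPKM. Popdc3 reached 0.0842 FPKM at most after 20 minutes, whereas Adam8 reached 4.98 in the kidney numbered 3.

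Immediate early genes, whose transcription starts within minutes of a stimulus, were higher in 20 of 36 and lower in 0 (unadjusted, 0), with a median of 1.19. Fosl1, a Fos-family subunit of AP-1, measured 2.34, 17.6 and 22.4 FPKM against 0, 0.553 and 4.77 (5.14 ± 1.33). Klf4 and Jund changed less but with little spread, for example 16.7 ± 2.20 FPKM against 5.11 ± 1.31 for Klf4 (mean ± SD). Ier5 rose by 1.23 in the left kidneys but differed by 0.95 in the right ones too (adjusted p = 0.0085), and its left-right change was not called (0.28, adjusted p = 0.38). Fos and Jun themselves were not called (1.23, adjusted p = 0.051, and 0.95, under 2-fold). Of 41 genes of TGF-beta signalling and of the YAP and SRF programs, which report tension and actin state, 26 were higher and 0 lower, with a median of 1.22. Ccn2 (CTGF), a classic YAP target, stood at 122, 164 and 225 FPKM against 27.4, 36.1 and 51.0, with 28.3 to 63.4 in the right kidneys. The 20-minute kidneys were thus within or just under the range of the right kidneys and the 40-minute kidneys above it (2.17 ± 0.18, adjusted p = 1.1e-05).

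The upstream sequence of genes that moved was read for motifs of factors with a known role in the injury response, to show where such letters lie near the start of some of the genes named here. RefSeq sequence (GRCm38.p6) from 250 bases before to 50 after the start was searched on both strands in 11026 of the tested genes, of which 844 were called higher and 652 lower. A gene with several starts counted when the window of any of them matched, and each share of promoters is a share of the genes searched. The AP-1 motif TGACTCA was found in 4.93% of all genes searched, in 9.72% of those called higher and in 5.83% of those called lower. Of the 8 motifs searched, AP-1, the CArG box, HNF4 and the D-box are shown with sequences. The E-box CACGTG was in 11.2%, 9.83% and 10.3% of all promoters, of those called higher and of those called lower, the CRE TGACGTCA in 3.34%, 2.84% and 1.69%, the TATA box TATAAA in 9.53%, 13.9% and 14.1%, and part of the HNF1 site, GTTAATNAT, in 0.698%, 0.355% and 2.45%. These shares are descriptions, with no test, and a match is no evidence of binding. The stretches below run 5' to 3' on the strand of the gene and end before its start, and capitals mark the motif on whichever strand it was found; their positions are chr3:92364950-92365036 (plus strand), chr9:7502239-7502325 (plus strand), chr7:24462374-24462460 (plus strand), chr2:152105382-152105523 (plus strand) and chr9:69453548-69453634 (plus strand). Sprr2f, Mmp10 (stromelysin-2, a matrix protease, 6.13), Plaur (the urokinase receptor, 3.25), Srxn1 (sulfiredoxin, which restores oxidized peroxiredoxins, 2.43, with a pair of matches) and Anxa2 (a calcium-dependent membrane binder, 2.41) are shown because each of these genes rose.
Sprr2f: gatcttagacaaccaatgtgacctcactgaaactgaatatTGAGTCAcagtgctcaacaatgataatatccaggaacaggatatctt
Mmp10: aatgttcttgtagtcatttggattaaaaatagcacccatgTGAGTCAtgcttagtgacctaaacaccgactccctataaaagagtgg
Plaur: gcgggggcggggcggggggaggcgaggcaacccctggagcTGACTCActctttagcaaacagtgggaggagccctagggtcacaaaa
Srxn1: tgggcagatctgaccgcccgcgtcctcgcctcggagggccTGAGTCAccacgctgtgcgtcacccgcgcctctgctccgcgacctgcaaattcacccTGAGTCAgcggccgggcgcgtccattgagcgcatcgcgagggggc
Anxa2: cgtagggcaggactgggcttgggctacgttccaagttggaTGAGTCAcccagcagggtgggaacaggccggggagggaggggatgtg

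The CArG box, the site of SRF, was in 1.59% of all promoters, 2.25% of those of genes called higher and 0.767% of those called lower. It is shown for Fhl2, a LIM protein coupled to actin signalling (1.5), and Vcl (vinculin, an anchor of focal adhesions, 1.06), at chr1:43196808-43196897 (minus strand) and chr14:20929148-20929220 (plus strand), with the box in capitals.
Fhl2: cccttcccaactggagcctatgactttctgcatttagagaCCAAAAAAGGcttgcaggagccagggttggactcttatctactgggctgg
Vcl: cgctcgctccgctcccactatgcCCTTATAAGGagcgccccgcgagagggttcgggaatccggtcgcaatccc

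On the side of the genes that fell, the HNF4 motif CAAAGTCCA stood in 0.571% of all promoters, 0.711% of those called higher and 1.53% of those called lower, and the D-box TTATGTAA, bound by DBP, TEF and HLF of the circadian clock, in 0.771%, 0.592% and 2.76%. Slc3a1 (a subunit of the cystine carrier, -1.39) and Agxt2 (a mitochondrial aminotransferase, -1.44) carry the first, at chr17:85028268-85028346 (plus strand) and chr15:10358472-10358532 (plus strand). Acsm3, Miox and the clock gene Per3 (with a pair of matches) carry the second, at chr7:119760820-119760907 (plus strand), chr15:89334375-89334462 (plus strand) and chr4:151044776-151044910 (minus strand). Capitals again mark the motif. Hnf4a itself was at -0.42 ± 0.12 (under 2-fold, adjusted p = 0.017).
Slc3a1: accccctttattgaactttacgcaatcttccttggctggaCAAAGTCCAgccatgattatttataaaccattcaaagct
Agxt2: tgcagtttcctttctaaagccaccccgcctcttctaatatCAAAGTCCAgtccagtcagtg
Acsm3: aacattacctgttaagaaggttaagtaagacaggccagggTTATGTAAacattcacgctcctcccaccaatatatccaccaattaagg
Miox: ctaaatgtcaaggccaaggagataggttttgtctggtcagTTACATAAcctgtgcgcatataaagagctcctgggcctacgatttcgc
Per3: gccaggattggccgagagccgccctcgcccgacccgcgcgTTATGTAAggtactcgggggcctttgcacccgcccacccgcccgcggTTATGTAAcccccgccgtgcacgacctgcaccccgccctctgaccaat

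Stress programs were raised unevenly. Of 29 p53 targets and cell cycle inhibitors 13 were higher, with a median of 0.85 (7 with 1 FPKM added before the logarithm), among them Cdkn1a (p21), at 64.0, 92.6 and 153 FPKM against 4.19, 11.7 and 39.6 (3.02 ± 0.50, adjusted p = 0.00067). The groups did not overlap. Of 35 genes of the ATF4 and unfolded protein response 9 were higher and 1 lower (9 and 2 without both kidneys numbered 6), with a median of 0.61. The unfolded protein response members Xbp1 (0.05), Ern1 (-0.02), Atf6 (0.24), Creld2 (-0.22), Herpud1 (-0.62) and Sdf2l1 (-0.81) were not among those called. Sdf2l1 was called lower without both kidneys numbered 6 (-1.21). Gdf15, a stress hormone of many tissues, rose by 3.31 ± 0.34 (39, 62.3 and 100.1 FPKM against 3.62, 5.15 and 14.2), whereas Cth, which makes cysteine, fell by 1.19. Heat shock genes and chaperones showed no common shift, with 1 of 32 called (Hspb1, 2.41, or 2 genes without both kidneys numbered 6) and a median of 0.01. At an adjusted p under 0.05 whatever the fold (limma), 8 were higher, such as Bag3 (0.61), and 8 lower, such as Hsph1 (-0.80) and Pdia4 (-0.60).

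Redox and cell death genes were mixed as well. Among 36 NRF2 and glutathione genes 7 were higher (Srxn1, Slc7a11 and G6pdx among them) and 1 lower (Osgin1, -1.59), or 8 and 0 without both kidneys numbered 6, and Me1 and Sod2 were below 2-fold (-0.83 and -0.90). Of 28 genes of ferroptosis, necroptosis and pyroptosis 6 were higher and 0 lower: Acsl4, which loads membranes with oxidizable fatty acids (1.10 ± 0.12), Mlkl, the pore of necroptosis (2.47 ± 0.48), its kinase Ripk3, the cystine carrier subunit Slc7a11, Ptgs2 (cyclooxygenase-2) and Chac1. With 1 FPKM added before the logarithm 3 remained higher, without Slc7a11, Ptgs2 and Chac1, and Ptgs2 (0.88, adjusted p = 0.27) and Chac1 (0.60, adjusted p = 0.58) were not called in the left-right change. Acsl4 measured 39.7, 42.7 and 51.8 FPKM against 15.6, 21.3 and 25.6, and Mlkl 3.30, 7.72 and 8.59 against 0.335, 1.03 and 3.02, both without overlap.

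Mitochondrial genes shifted together by a small amount. Of 48 oxidative phosphorylation genes, 0 were called at 2-fold with limma, yet 40 were lower at an adjusted p under 0.05 (42 lower and 0 higher at an unadjusted p under 0.05), and in 28 the groups did not overlap. The median was -0.38. Sdha, the catalytic subunit of complex II, had 157, 169 and 175 FPKM against 229, 288 and 303 (-0.73 ± 0.08, adjusted p = 4.7e-05), with 269 to 315 in the right kidneys. Of 45 PPARA targets and enzymes that oxidize fatty acids 2 were higher and 5 lower (4 and 7 without both kidneys numbered 6), and at an adjusted p under 0.05 whatever the fold 3 were higher and 13 lower, with a median of -0.32. Acadm, the medium-chain acyl-CoA dehydrogenase, fell from 268, 364 and 511 FPKM to 134, 146 and 184, while Plin2, the coat of lipid droplets, rose from 43.7, 74.6 and 304 to 380, 441 and 678, the value of 304 being that of the 20-minute kidney numbered 6. Cholesterol synthesis fell in 3 of 24 genes (Hmgcs1, Cyp51 and Insig1) and in 6 without the kidneys numbered 6.

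Genes of matrix and its turnover rose broadly. Of 52 tested, 29 were higher and 0 lower, with a median of 1.5, and the left-right change was larger after 40 minutes in 30. The kidney numbered 6 of the 40-minute group had the highest median of this list, 2.91 as log2 ratio to the right kidneys against 1.60 to 2.1 in the others. Without both kidneys numbered 6 the count was 24 higher and 1 lower, with a median of 0.98. Col12a1, a fibril-associated collagen, had 5.93, 7.48 and 12.5 FPKM against 1.10, 1.56 and 2.16 (2.35 ± 0.22, adjusted p = 2.3e-05). The fibrillar collagen gene Col3a1 was not called (65.5 ± 58.2 FPKM against 28.3 ± 23.7), and Col1a2 was only just (1.43, adjusted p = 0.044), a call that was lost without both kidneys numbered 6 (0.72, adjusted p = 0.094).

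Of 18 fibroblast and pericyte genes 5 were higher and 1 (Ngfr) lower, or 3 and 1 without both kidneys numbered 6. Acta2, smooth muscle actin, measured 77.2, 211 and 261 FPKM against 15.6, 21.8 and 68.1, and Tagln, an actin binder of smooth muscle, rose by 2.75 ± 0.35, while the smooth muscle genes Myh11 (0.50) and Cnn1 (1.14) were not called. The EGF family was split: the ligands Areg, Ereg and Nrg1 were higher and Egf lower, with the other 12 of 16 not called. Of 20 annexin and S100 genes 10 were higher, with a median of 1.13, among them Anxa1 (2.40) and Anxa3 (3.02). Markers of the endothelium were called in 1 of 26, Lyve1, a hyaluronan receptor of lymphatic and sinusoidal endothelium and of some macrophages (1.00, 1.65 and 3.24 FPKM against 0.0464, 0.239 and 0.361).

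**Figure D3:**
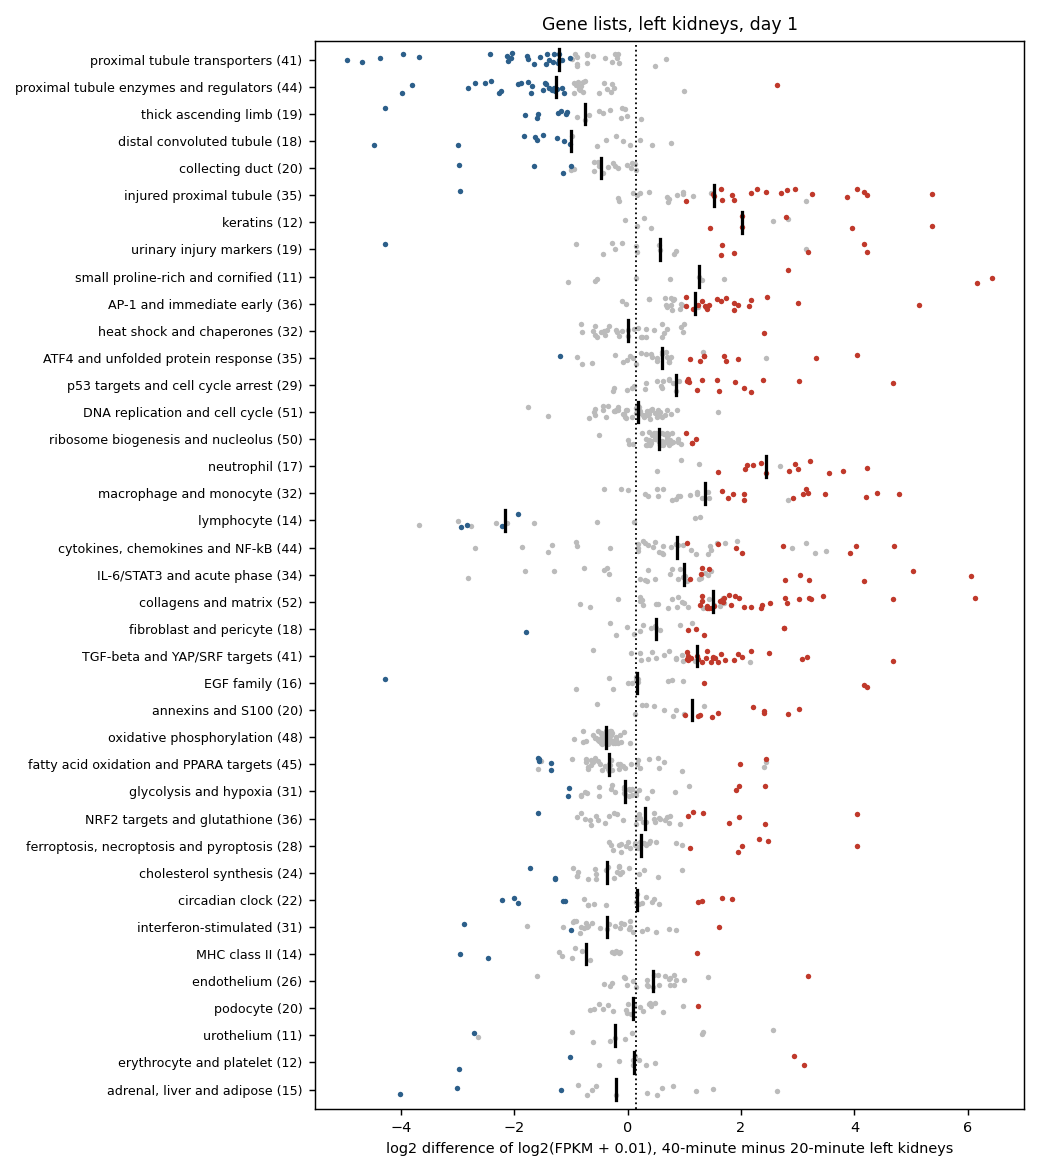
Each point is 1 gene of a list, at its log2 difference of the left kidneys, 40-minute minus 20-minute; red marks genes called higher, blue those called lower, grey those not called, the black bar the median of the list and the dotted line the median of all genes. Proximal tubule lists lie to the lower side (medians of -1.22 and -1.27) and injury, neutrophil and matrix lists to the higher side (1.52, 2.43 and 1.5).

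Leukocyte genes separated by cell type. Of 17 neutrophil genes tested, 13 were higher and 0 lower, with a median of 2.43 (6 higher with 1 FPKM added before the logarithm), at low levels: the summed level ran from 26.6 to 66.4 FPKM against 3.25 to 32.8, and from 4.02 to 16.8 in the right kidneys. Il1r2, a decoy receptor for interleukin-1 on neutrophils, measured 1.26, 3.22 and 4.78 FPKM against 0.0927, 0.124 and 0.898. The right kidneys already differed in the same direction for this list, with a median of 0.62 and 0 of its genes called there, and only 2 were called when each left kidney was set against its own right one. Clec4d, a C-type lectin receptor, shows this: it differed by 4.21 in the left kidneys, by 3.15 in the right (not called), and by 1.07 in the left-right changes (adjusted p = 0.68). Granule genes of young neutrophils (Ltf, Camp, Elane, Mpo) and the mouse neutrophil marker Ly6g were not among the genes tested.

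Macrophage genes were higher in 13 of 32, with a median of 1.36, and in 11 without the kidneys numbered 6, where the median was 0.61. Among the called genes were several of scavenging and wound-type macrophages: Arg1 (arginase, 4.79), Ms4a4a (4.40), Cd163, the hemoglobin scavenger receptor (0.169, 0.707 and 1.38 FPKM against 0.0185, 0.0426 and 0.142, 3.48 ± 0.57), Msr1 (2.92) and Gpnmb (3.09). In the left-right change 8 of the 32 were called, Cd163 and Ms4a4a among them, but not Arg1 (2.29, adjusted p = 0.37), Msr1 (1.58) or Gpnmb (-2.11), which were higher by 2.5, 1.34 and 5.20 in the right kidneys without being called there. The defining markers Adgre1 (F4/80), Csf1r and Cx3cr1 were not called, at 0.51, -0.12 and 0.36. The called members are also made by other cells in part, for example Spp1 and Thbs1, and their part in the list's count was not tested.

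Lymphocyte genes were lower in 4 of 14, with a median of -2.17 at summed levels of 2.23 to 12.3 FPKM against 2.38 to 25.4, and in 10 of 14 without the kidneys numbered 6. Of 31 interferon-stimulated genes 2 were lower and 1 (Oasl1, 1.61) higher, and without them 9 lower and 1 higher. Of 14 MHC class II genes, which mark antigen-presenting cells, 2 were lower and 1 (Ctss, a lysosomal protease, 1.23) higher, and without them 6 lower and 0 higher. For H2-Aa, a class II chain, the 40-minute kidneys had 16 to 27.5 FPKM except for 59.1 in the kidney numbered 6, and the 20-minute kidneys 48.3 to 64.7 except for 21.5 in the kidney numbered 6. The difference was -0.94 ± 0.32 (adjusted p = 0.036, under 2-fold) with them and -1.42 ± 0.14 without. These 3 lists thus depend on the pair of kidneys that stood apart, and each of them moved further toward lower values when they were left out. In the left-right change 0 of 14 lymphocyte genes and 0 of 14 MHC class II genes were called, and 2 of 31 interferon-stimulated genes were lower. The 4 called lymphocyte genes had group means between 0.0747 and 0.888 FPKM, near 0, where the fold depends on the 0.01 added.

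Secreted signals were higher in 8 of 44 cytokine and NF-kB genes and lower in 0 (median 0.87; 14 higher without the 20-minute kidney numbered 3), and in 10 of 34 genes of IL-6 signalling and the acute phase (median 0.99). Il24, a cytokine of the IL-10 family, measured 1.07, 1.28 and 2.78 FPKM against 0, 0.0749 and 0.654, and 0 in every right kidney. Ccl2 and Cxcl1, chemokines of monocytes and neutrophils, overlapped widely between groups and were not called (3.15, adjusted p = 0.055, and 1.47, adjusted p = 0.2).

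**Figure D4:**
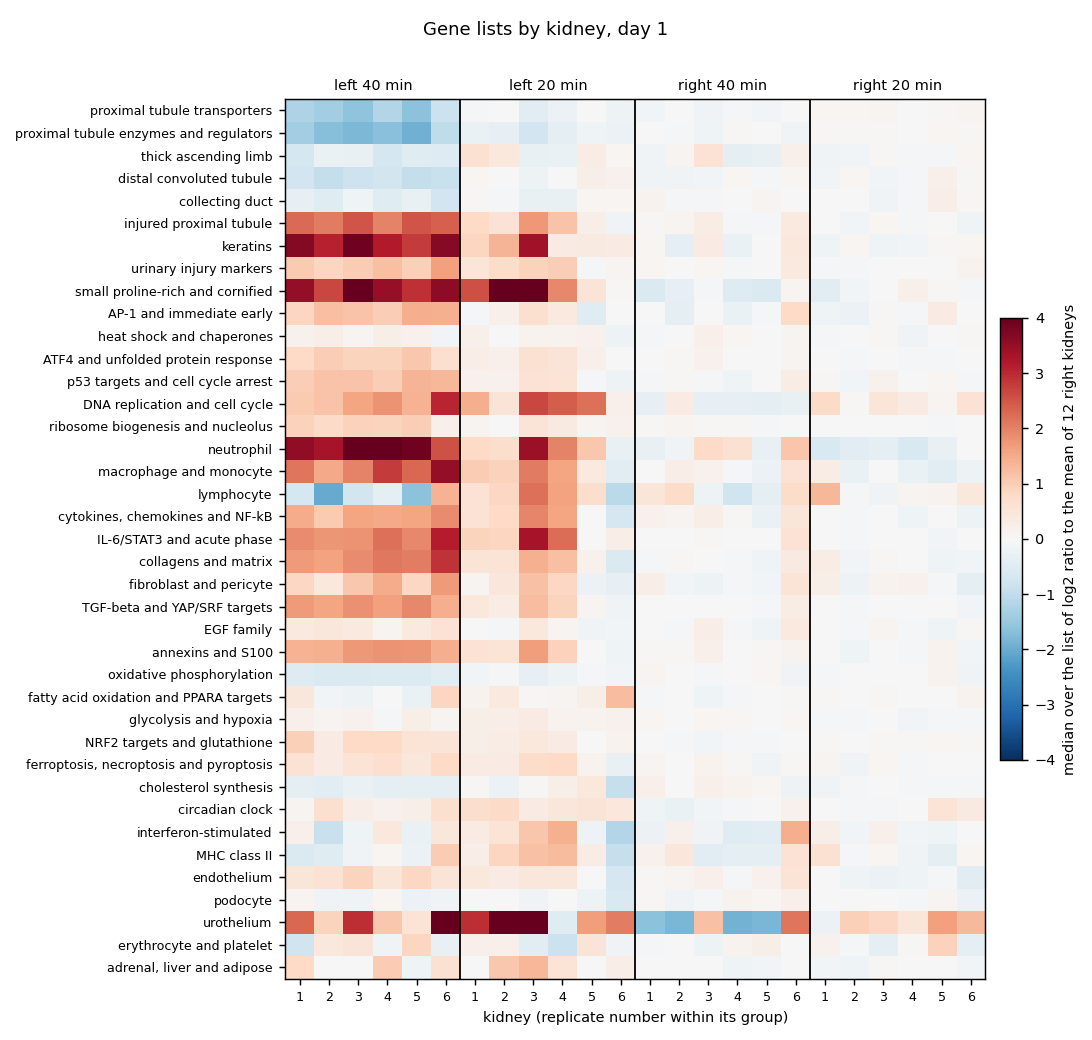
Each cell of the map is the median over 1 gene list in 1 kidney of the log2 ratio to the mean of the 12 right kidneys, on a colour scale from -4 to 4. The kidneys numbered 6 differ from their groups in the cell cycle list (3.06 after 40 minutes, against 1.04 to 1.79) and in the injured proximal tubule list (-0.15 after 20 minutes).

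Genes of DNA replication and the cell cycle did not separate the left groups. Of 51 tested, 0 were called with limma, 1 was higher at an adjusted p under 0.05 below 2-fold (Cdk2, 0.68) and 1 at an unadjusted p under 0.05. Mki67 ran from 0.966 to 8.38 FPKM (median 1.27) against 0.847 to 6.22 (median 3.15), a difference of -0.59 ± 0.62 (adjusted p = 0.48). Without both kidneys numbered 6 it was -1.33 (adjusted p = 0.041) and 3 genes of the list were lower, Birc5, Kif11 and Mki67. In the right kidneys 5 genes of the list were lower in the 40-minute model, with a median of -0.82. In the left-right change 3 of the 51 were called higher and 0 lower, with a median of 1.035. Over all genes 6.12% were called higher and 5.04% lower there. Ribosome biogenesis, in contrast, was higher in 35 of 50 genes at an adjusted p under 0.05, with 4 at 2-fold (6 without both kidneys numbered 6) and a median of 0.56; the 40-minute kidney numbered 6 was lower there (0.19 as log2 ratio to the right kidneys, against 0.76 to 0.98).

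Of 22 clock genes tested, 4 were higher and 5 lower in the left kidneys, and 1 was higher (Cry1) and 1 lower (Dbp) in the right kidneys. Dbp, a factor that binds the D-box, measured 3.72, 5.5 and 15.2 FPKM after 40 minutes and 4.21, 40.9 and 48.1 after 20 minutes (-2.22 ± 0.56), and without both kidneys numbered 6 the difference was -3.04. In the right kidneys of the 40-minute mice Dbp was at 0.858 to 1.51 FPKM, and in those of the 20-minute mice at 2.75 to 3.87 in 4 kidneys and at 26.8 and 37.4 in the other two. Arntl (BMAL1), which peaks opposite to Dbp, was at 4.30, 8.36 and 9.42 FPKM against 1.27, 1.65 and 9.51 in the left kidneys, and the value of 9.51 is that of the kidney numbered 6. The left-right changes were not called for either (0.36 and 0.46). Time of day is not in the labels, and its part in these values was not tested. Hlf, the third factor of that family, did differ in the left-right change (-1.80, adjusted p = 0.0027), with 2.36 to 8.91 against 12.1 to 31.1 FPKM in the left kidneys.

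**Figure D5:**
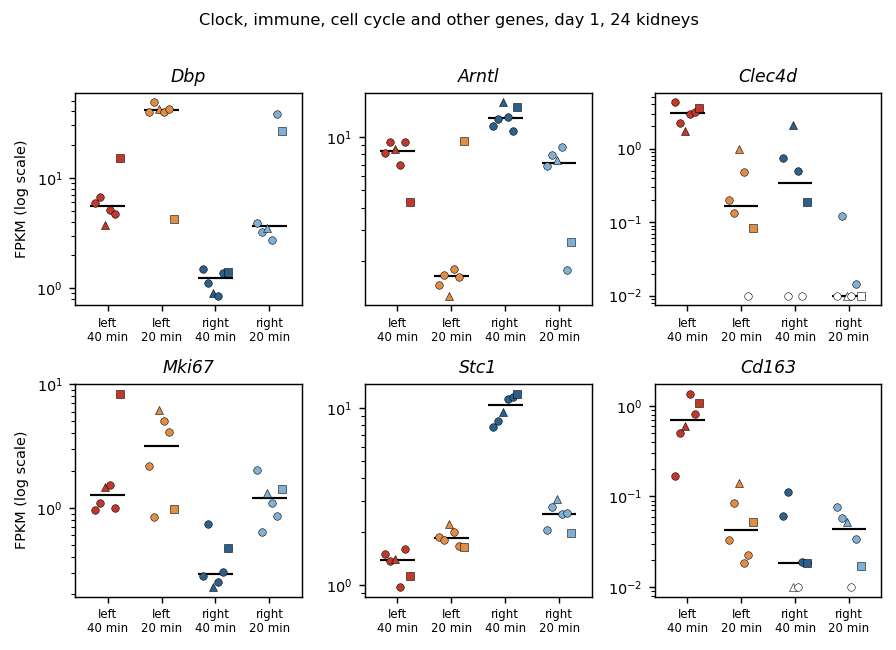
Each symbol is 1 kidney, with FPKM on a log axis, for 6 genes in the 4 groups of left and right kidneys; bars are medians, squares mark the kidneys numbered 6, triangles those numbered 3, and open symbols are values at or under 0.01 drawn at 0.01. Dbp differs between the right kidneys of the models as well, whereas Arntl was not called there (1.37, adjusted p = 0.064), and Stc1 differs there more than in the left kidneys (7.78 to 12 against 1.98 to 3.07 FPKM).

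Stc1 (stanniocalcin-1, a calcium-regulating hormone of the nephron) is the plainest case of a difference between the models in uninjured kidneys. It was at 7.78 to 12 FPKM in the right kidneys of the 40-minute mice and 1.98 to 3.07 in those of the 20-minute mice (log2 difference 2.01). In the left kidneys it was 0.98, 1.39 and 1.61 FPKM against 1.65, 1.84 and 2.23 (-0.50 ± 0.16, under 2-fold). The left-right change therefore differed by -2.51 (adjusted p = 3.2e-05), mostly through the right kidneys. Grem1, an antagonist of BMP signalling, was also higher in the right kidneys of the 40-minute mice, by 4.19, with a difference of -2.52 in the left-right change. Unlike Stc1 it was higher in the left kidneys too, though not called (1.67, adjusted p = 0.051).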

How the data were processed

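Kidney cortex RNA was sequenced by the authors. Per the submitters' processing notes, FastQC 0.11.7, HISAT2 2.1.0 and GRCm38 were used, and the study's methods name Ballgown. The authors deposited FPKM per Ensembl transcript, not counts, for 33953 transcripts, each reaching 0.5 FPKM in at least 1 library. FPKM was summed per GENCODE M21 symbol into 14320 features (82 transcripts were not found by identifier and were kept singly). Genes averaging 0.01 FPKM or more over the kidneys compared entered limma 3.58.1 (R 4.3.3) on log2(FPKM + 0.01), with eBayes and a trend, and Benjamini-Hochberg adjusted p over all genes. The left-right changes were compared between models in the same way; the trend over the mean log2 level in this fit was chosen after seeing the data. The steps were tested on simulated data. Values were handled with Python 3.11.15, numpy 2.4.6, pandas 2.3.3 and matplotlib 3.10.9. The members, the 39 gene lists and the rule for naming genes were chosen with earlier results of these data known. The rule names the genes of the study, the 12 largest rises and 12 largest falls, the 5 largest gains and losses in FPKM, the 4 list members with the smallest adjusted p, the 5 largest rises and falls in the right kidneys, and members that define a list or go against it; not all are printed, and further list members (such as Cd44, Vim, Plaur, Mmp10, Fosl1 and Cdkn1a) and the genes beside the promoter sequences were picked after their values were seen. Pseudocounts, filters, scalings, spread models, single transcripts, the replicate number as a block and each kidney left out were tried as alternatives. Nothing says that kidneys of a group came from separate litters, and p-values measure the spread between these mice. Some genes covered by the rule are left out.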

Additional observations from a re-analysis of the deposited data

Results flagged for a closer look

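In 14 of 70 groups of 6 left kidneys, checked for the 35 genes given by kidney, 1 kidney lay far from the other 5. The 40-minute kidney numbered 6 was the kidney in most of them: it was lowest in Havcr1 (171 FPKM), Spp1 (3310), Sprr2f (9.35), Fosl1 (2.34), Acta2 (77.2), Pvalb (0.0777) and mt-Atp6 (765), and highest in Aqp1 (97.9), Slco4c1 (0.572) and Mki67 (8.38). The 20-minute kidney numbered 6 was lowest in Dbp (4.21 FPKM) and H2-Aa (21.5) and highest in Arntl (9.51). The 40-minute kidney numbered 3 was highest in Il24 (2.78 FPKM). The kidneys numbered 6 recur across genes, and some of the 35 genes were picked after their values were seen. The 14 groups are therefore not independent and are not set against a chance rate.

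The change from right to left kidney differed between the models for 875 genes that gained more and 720 that lost more after 40 minutes, at an adjusted p under 0.05 and 2-fold (limma). For Stc1 (-2.51) and Grem1 (-2.52) this difference went against a difference called in the right kidneys.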

How the results depend on the processing

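With 1 FPKM added before the logarithm in place of 0.01, the counts of genes called higher and lower were 564 and 458 in the left kidneys, 15 and 4 in the right kidneys and 543 and 450 for the left-right changes, against 1116 and 839, 32 and 32, and 875 and 720. In the right kidneys the counts were 17 and 13 with single transcripts; the count lower was 12 with a filter at a mean of 1 FPKM and 16 without the kidneys numbered 6, an alternative chosen after seeing the data. Leaving out each kidney or mouse in turn gave 937 to 1387 higher and 709 to 977 lower in the left kidneys, the 1387 without the 20-minute kidney numbered 3, 22 to 38 and 14 to 47 in the right kidneys (14, 16, 18 and 16 lower without the 20-minute mice numbered 1, 3, 4 and 6, and 21 without the 40-minute mouse numbered 3), and 699 to 1109 and 630 to 821 for the left-right changes. The replicate numbers name different mice in the models and same-numbered left kidneys hardly deviated together (correlations of -0.079 to 0.063, with 1 of 6 closest to its own number); with the replicate number as a block the left counts were 1057 and 795 and the right counts 21 and 8, and without the mouse as a block the left-right counts were 890 and 727. With quantile normalization 44.7% and 55.3% of the calls in the left-right changes were higher and lower, against 54.9% and 45.1%, and 46.2% and 53.8% in the left kidneys. Of 113 genes named in the text and called in the left kidneys, 88 lost no call under the alternatives that left out no single kidney. With each kidney left out in turn, 100 lost no call. A gene that an alternative did not test, such as one removed by the filter at 1 FPKM, counted as not lost. Single transcripts were not checked gene by gene. Col1a2, Ivl, Itga2b and Atp6v1b1 were lost most often, and 19 were lost with 1 FPKM added. Among the genes named in the text, no called difference changed direction under the alternatives checked gene by gene.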

Other observations

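Lists for other parts of the kidney and for tissue around it moved little or unevenly. Of 20 podocyte genes 1 was higher, Nes (nestin, 1.23), with a median of 0.09. Glycolysis and hypoxia genes were higher in 3 of 31 and lower in 2, with a median of -0.04: Hk2 (hexokinase 2, 2.43), Adm (adrenomedullin, a vasodilator peptide, 1.90) and Hmox1 (heme oxygenase 1, 1.96) rose, and Pfkm (the muscle phosphofructokinase, -1.04) and Car9 fell, while Vegfa was below 2-fold (-0.82). Among blood genes the platelet chemokines Pf4 (2.93) and Ppbp (3.11) rose, and Slc4a1 and Itga2b fell. Urothelial genes, which renal pelvis in a cortex sample can bring, summed to 44.4 to 68.5 FPKM after 40 minutes and to 10.2 to 193 after 20 minutes. Of these genes 1 of 11 was lower (Upk2). The right kidneys summed to 6.53 to 12.8 FPKM in the 40-minute mice and 7.11 to 12.7 in the 20-minute mice. Where this RNA came from was not tested. Of 15 adrenal, liver and adipose genes tested, 3 were lower (Apoa1, Apob and Serpina1a), and the adrenal enzyme genes Cyp11a1, Cyp11b1, Cyp11b2 and Cyp21a1 were not among the genes tested.

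The mitochondrially encoded gene mt-Atp6, which overlaps mt-Atp8, had the largest gain in mean FPKM but did not vary gradually. It was at 4521 to 4913 FPKM in 5 of the 40-minute kidneys and at 765 in the kidney numbered 6, against 842 to 1040 in the 20-minute kidneys. In the right kidneys of the 40-minute mice those numbered 2 and 6 had 5271 and 5091 FPKM and the other 4 between 1153 and 1234, so the high level also occurred without ischemia and was not shared by the left and right kidneys of every mouse.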
